A study of Drosophila melanogaster with 2 samples.

Results

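The 10 genes described here encode parts of the machinery of autophagy, the process by which a cell encloses its own cytoplasm in membrane and delivers it to the lysosome. They were taken as a list of gene names by a rule that uses no measured value, although the list was drawn up with earlier results of these data known. They are 10 of 13945 protein-coding genes annotated on the 6 main chromosome arms. Their peaks are 17 of the 8483 in the most stringent of the deposited peak lists. The measurement was chromatin immunoprecipitation followed by sequencing (ChIP-seq). It located CG15710, a protein handled by the assay as a transcription factor and known by its annotation number, in whole Drosophila melanogaster pupae of 24 hours, with both sexes pooled. All animals came from a transgenic line that stably carries CG15710 with green fluorescent protein (GFP) at its C-terminus, and the precipitation was made with an antibody to GFP. The promoter that drives the transgene is not given in the sources used here, and no untagged or untreated animals were analysed here. A single group was sampled in 2 biological replicates (1 and 3 by their labels), so the values below describe where peaks lie and make no comparison between groups of animals.

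Autophagy begins with the Atg1 kinase and its partners Atg13, Atg17 and Atg101, which act on a lipid kinase complex containing Atg6 and on membrane vesicles that carry Atg9. The lipid made by that kinase recruits Atg18a, and a conjugation machinery that includes Atg5 and Atg16 then attaches Atg8a to the growing membrane. In the fly, the steroid hormone ecdysone triggers autophagy in larval tissues such as fat body, midgut and salivary gland during metamorphosis. Whole pupae hold many tissues, and a peak from strong binding in few cells cannot be told apart here from weak binding in many.

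A peak was assigned to a gene when its summit, the position of its highest enrichment, lay in the annotated gene or within 2 kb of it. Positions are given relative to the gene's nearest transcription start site (TSS), with negative values upstream. Signal is the authors' own value for each peak, on a scale that is not stated. It is used only to rank peaks within a list, with rank 1 the strongest. The irreproducible discovery rate (IDR) list holds 8483 peaks, and these were the 8483 pooled peaks of highest signal. The pooled list and both replicate lists hold 30000 peaks each. The lists carry no read counts, so sequencing depth is unknown.

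The sequence under the 5 strongest summits of these genes is printed because these are the sites where the immunoprecipitation was most enriched. Each run is a window centred on the summit, on the strand of the autophagy gene, from the RefSeq copy of the dm6 assembly. The Atg18a run stops after 80 bases, at the base before the start site, because bases of UTRs are not printed. Capitals mark any of 8 short words that were searched for on both strands (named with the base composition further on), and a single one was found.
Atg5 at -1252 bp (chrX:7324972-7325072, minus strand): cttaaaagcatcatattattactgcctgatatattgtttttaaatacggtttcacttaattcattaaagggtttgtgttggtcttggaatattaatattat
Atg1 at 11930 bp (chr3L:12793136-12793236, minus strand): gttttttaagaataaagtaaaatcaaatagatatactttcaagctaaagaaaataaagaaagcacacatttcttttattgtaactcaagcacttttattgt
Atg17 at -249 bp (chr3R:5669414-5669514, plus strand): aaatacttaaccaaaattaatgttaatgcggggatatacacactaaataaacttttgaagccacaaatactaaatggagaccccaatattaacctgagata
Atg18a at -30 bp (chr3L:8186777-8186856, plus strand): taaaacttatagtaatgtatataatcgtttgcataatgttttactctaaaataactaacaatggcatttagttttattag
Atg5 at 4499 bp (chrX:7319221-7319321, minus strand): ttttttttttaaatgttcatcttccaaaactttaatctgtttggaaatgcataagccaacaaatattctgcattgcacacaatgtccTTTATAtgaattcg

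Nearly all of the listed genes carried a peak of the IDR list. An IDR summit lay in or within 2 kb of 9 of the 10 genes, against 42.9% of all protein-coding genes, and Atg16 was the exception. Atg1 and Atg6 had 3 summits each, Atg17, Atg18a, Atg5 and Atg8a had 2, and Atg13, Atg101 and Atg9 had 1. With 2 or more summits stood 6 of the 10 genes, against 17.4% of all protein-coding genes. Within 500 bp of one of their own start sites, 6 of the 10 genes had an IDR summit, against 24.6%. The median span of these genes was also longer, 3861.5 bp against 2166 bp over all protein-coding genes, and a longer gene offers more room for a summit. Atg101 (1850 bp) and Atg6 (1603 bp) were shorter than the median of all genes. Per kilobase of gene and flanks, the listed genes had 0.162 IDR summits, against 0.0764 over all protein-coding genes. Both values divide all summits by all bases, so long genes weigh more, and genes were not matched by length. No test was made on these counts.

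In the longer lists every listed gene had a summit. In the pooled list an assigned summit was found at 10 of the 10 genes, against 62.8% of all protein-coding genes. It was also 10 of 10 in replicate 1, against 62.9%, and 10 of 10 in replicate 3, against 68.8%. Within 500 bp of their own start sites, 9 of the 10 genes had a summit in the pooled list, against 47.0%, all but Atg101. In replicate 1 it was 9 of the 10, against 48.2%, and in replicate 3 it was 9 of the 10, against 46.6%. The lists differ in length, so these counts are not compared with those of the IDR list. They also hold peaks of weak statistical support. The deposited −log10 q-value falls to 0.29 in the pooled list, 0.45 in replicate 1 and 0.17 in replicate 3. A summit in these lists is thus not always a confident site.

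**Figure D1:**
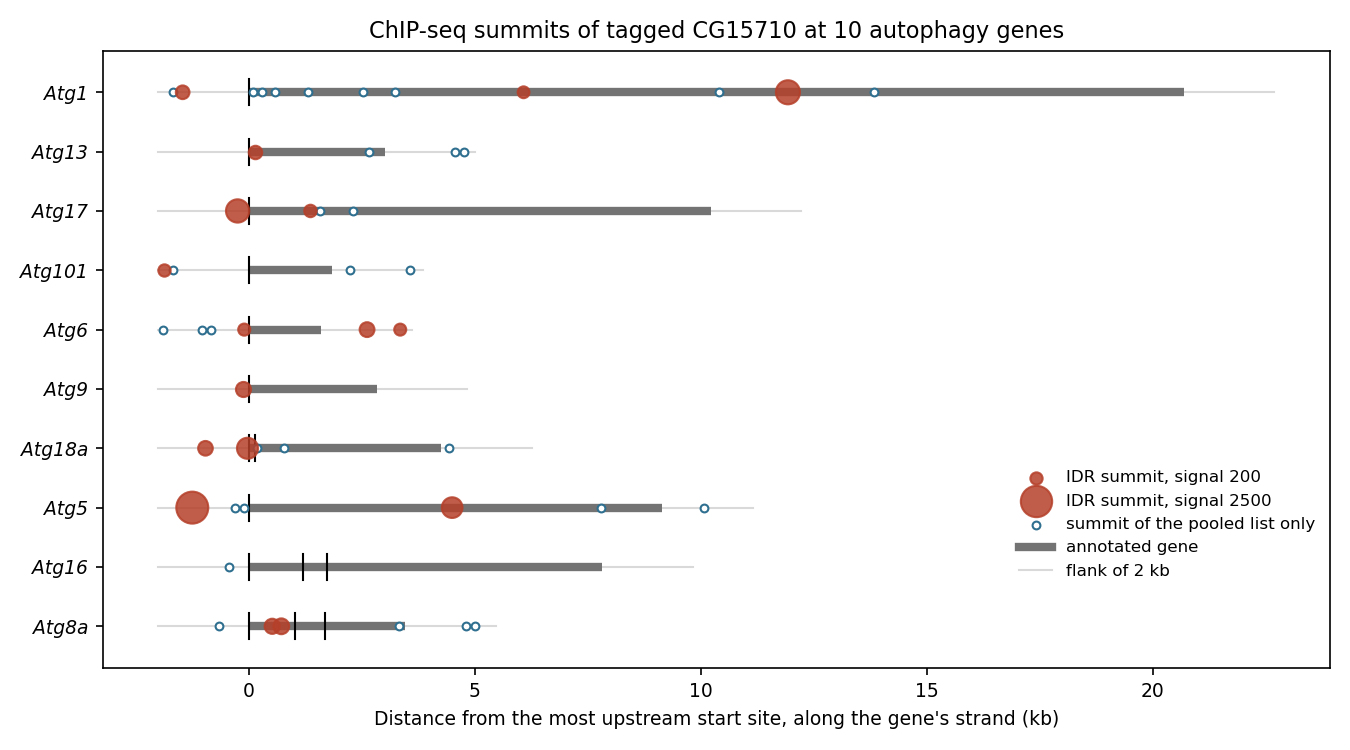
Position of every summit of the pooled list in and within 2 kb of the 10 autophagy genes, as distance in kb from the most upstream start site along the gene's strand. Filled points are the 17 summits of the IDR list, with area growing with signal, open points are the 32 other summits of the pooled list, grey bars are the genes and black ticks their start sites. The largest points stand at Atg5 (signal 2611.9, upstream), Atg1 (signal 1387.2, intron) and Atg17 (signal 1282.2, upstream), and Atg16 has 1 open point.

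The 17 summits ranged from signal 171.8 to 2611.9. Their median signal was 393.0 and their median rank 3544, against 329.4 and 4242 over all IDR peaks, so as a set they sat slightly above the middle of the list. A summit of rank 1000 or better was found at 3 of the 10 genes (Atg5, Atg1 and Atg17), against 8.58% of all protein-coding genes. All 3 of these summits lay nearer to the start site of another gene (Dok, CG42709 and Xe7, in that order) than to that of the listed gene. The share of all genes was not computed for summits nearest to the gene's own start site. By the annotation of the autophagy gene itself, 8 summits were upstream, 6 in introns, 1 in a 5′ UTR and 2 downstream of the gene.

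Both replicates held a peak overlapping each of the 17 listed peaks, against 96.9% of the IDR list. The IDR list was made from these replicates, so a high share was built in. The 2 Atg8a summits share 1 interval and the same strongest overlapping peak in each replicate, and they are counted separately here. Summits within 100 bp in both replicates were found for 16 of the 17 peaks (94.1%), against 92.8% of all IDR peaks. The median shift of the summit was 9 bp in replicate 1 and 11 bp in replicate 3, against 6 and 15 bp over all IDR peaks. Among the 8483 strongest peaks of each replicate, 13 of the 17 (76.5%) had a partner in both, against 81.3% of all IDR peaks. The 4 without one were the Atg1 peak at 6080 bp, the Atg13 peak at 135 bp and the Atg6 peaks at -102 and 3350 bp. All 4 ranked too low in replicate 3.

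**Figure D2:**
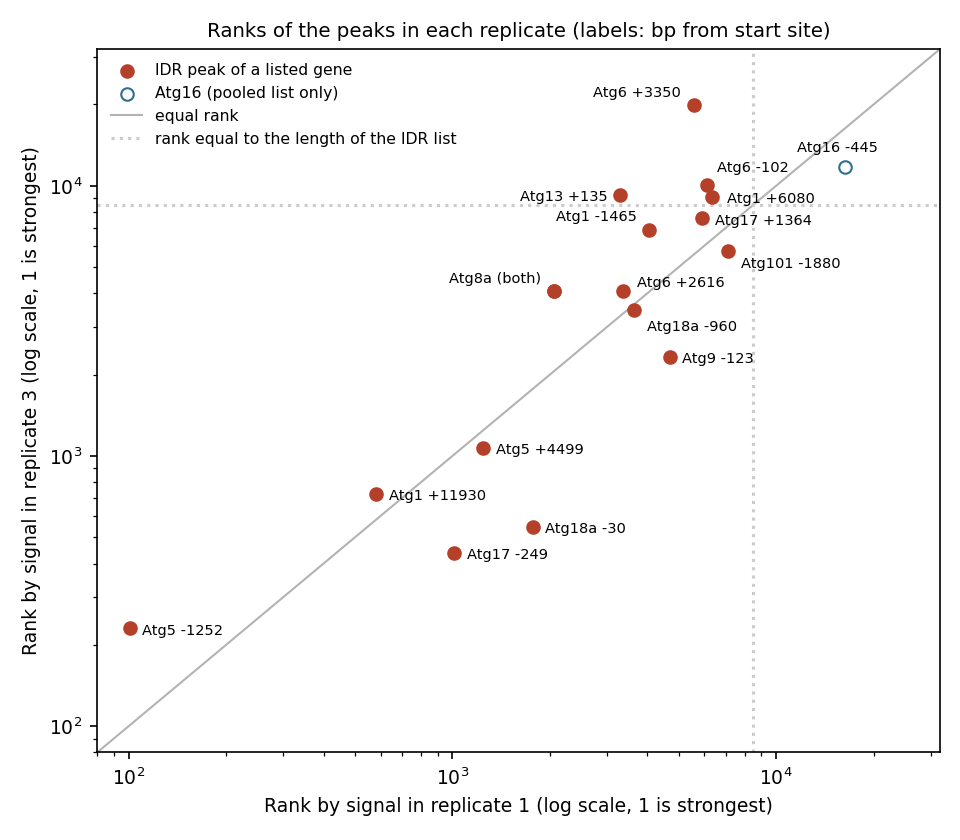
Rank by signal in replicate 1 (x axis) and replicate 3 (y axis), both on log scales with 1 the strongest, for the replicate peak of highest signal that overlaps each IDR peak of the listed genes, and for the pooled peak of Atg16 (open point). Dotted lines mark rank 8483, and labels give the distance in bp from the start site. Points near the line have equal ranks, the Atg5 peak at -1252 bp is the strongest in both, and the Atg6 peak at 3350 bp stands farthest above the line, at rank 5561 in replicate 1 and 19875 in replicate 3.

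The kinase that starts autophagy, Atg1, had its strong site deep inside the gene. Atg1 (FBgn0260945, chr3L:12784429-12805116, minus strand) spans 20688 bp with a single start site. Its strongest summit lay in an intron at 11930 bp (peak chr3L:12792937-12793431), with signal 1387.2 and rank 615. The replicates placed it at 11924 bp (rank 583, signal 880.1) and 11923 bp (rank 726, signal 503.4), so both put it among their strongest peaks and within a few bases. That position also falls in an intron of CG42709, a gene that lies wholly inside Atg1 on the opposite strand. It is 1968 bp from the nearest CG42709 start site, closer than to the start of Atg1.

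The other sites of Atg1 were weaker. A summit at -1465 bp (signal 301.1, rank 4650) lay in an intron of the divergent gene Sap130, which encodes a component of a histone deacetylase complex, 395 bp from the nearest Sap130 start site. It had rank 4058 in replicate 1 and 6885 in replicate 3. A second intronic summit at 6080 bp was the weakest of the 17 (signal 171.8, rank 7907), with ranks 6335 and 9075. At the Atg1 start itself the IDR list had no summit within 500 bp. The pooled list had 3 weak ones in the 5′ UTR, at 89, 299 and 570 bp, with signals of 66.3, 73.6 and 89.5. Atg1 carried 12 pooled summits in all, the most of the 10 genes, over the longest window.

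Atg13, the regulatory partner that links Atg1 to nutrient signals, had the single IDR summit of the 17 inside the gene's own 5′ UTR. Atg13 (FBgn0261108, chr3R:8349815-8352817, plus strand) carried it at 135 bp (peak chr3R:8349902-8350109, signal 285.1, rank 4917). The replicates did not agree closely on this site. Replicate 1 had its peak at 187 bp with rank 3301 (signal 257.5). In replicate 3 the overlapping peak was at 39 bp with rank 9234 (signal 57.6), and a separate, stronger peak stood at -211 bp with rank 5482 (signal 103.3). Replicate 1 had a peak at -402 bp, but only at rank 25826.

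Atg17, the scaffold of the kinase complex, had one of the strongest sites, in the space it shares with another gene. Atg17 (FBgn0037363, chr3R:5669713-5679930, plus strand) and Xe7 run in opposite directions from start sites 379 bp apart. The summit between them (peak chr3R:5669251-5669692, signal 1282.2, rank 705) was at -249 bp from Atg17 and at -130 bp from Xe7. It ranked 1013 in replicate 1 (signal 644.9) and 438 in replicate 3 (signal 644.4), high in both. A weaker summit in an intron of Atg17 at 1364 bp (signal 213.6, rank 6467) had ranks 5913 and 7570.

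Atg101, a small partner that stabilizes the complex, had the site nearest to the 2 kb limit. Atg101 (FBgn0030960, chrX:18791668-18793517, plus strand) lies wholly inside S6KL, a gene for a kinase related to ribosomal S6 kinase, on the same strand. Its single IDR summit at -1880 bp (signal 204.9, rank 6717) was at -374 bp from the nearest S6KL start site. It ranked 7119 in replicate 1 and 5714 in replicate 3. At the Atg101 start site no list had a summit within 500 bp, and it was the single listed gene without a pooled summit there.

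Atg6, the fly Beclin and a subunit of the lipid kinase complex, had 3 summits, each nearest to the start of another gene. Atg6 (FBgn0264325, chr3R:24049180-24050782, minus strand) is the shortest of the 10 genes and starts on the base next to the start of Pisd, which encodes a mitochondrial phosphatidylserine decarboxylase, on the opposite strand. The summit at -102 bp (signal 190.1, rank 7214) is in the 5′ UTR of Pisd, 1 bp closer to the start of Pisd than to that of Atg6. It ranked 6113 in replicate 1 and 10104 in replicate 3.

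The stronger summit of Atg6 (signal 393.0, rank 3544) lay downstream of the gene, at 2616 bp, and 99 bp inside Rox8, the gene of an RNA-binding protein. That position also falls inside CG5986, a gene on the opposite strand that lies next to the end of Atg6. The summit had similar ranks of 3354 and 4066 in the replicates. The third, at 3350 bp (signal 183.1, rank 7461), was at -64 bp from another Rox8 start site. It ranked 5561 in replicate 1 (signal 155.6) and 19875 in replicate 3 (signal 22.8), the widest gap of ranks among the 17.

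Atg9, the membrane-spanning protein of the vesicles that seed the autophagosome, had 1 peak in every list. Atg9 (FBgn0034110, chr2R:16294400-16297232, plus strand) had its IDR summit at -123 bp (peak chr2R:16294249-16294407, signal 414.5, rank 3355). Replicate 1 placed the summit at -115 bp with rank 4690 (signal 183.4), and replicate 3 placed it at -103 bp with rank 2323 (signal 228.3). No weaker pooled summit accompanied it, and among the 10 genes it alone had the same peak as its single site in all 4 lists.

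Atg18a, which binds the lipid made by the kinase complex, had a strong summit at its own start. Atg18a (FBgn0035850, chr3L:8186857-8191118, plus strand) has start sites at 2 positions. The summit at -30 bp (peak chr3L:8186609-8187030, signal 1012.9, rank 1085) lay between Atg18a and ERR, a nuclear receptor gene that runs in the opposite direction, at -156 bp from ERR. It ranked 1768 in replicate 1 (signal 428.7) and 548 in replicate 3 (signal 580.0). A second summit at -960 bp (signal 377.9, rank 3698) fell in an intron of ERR, at -227 bp from an ERR start site. Its position differed by 1 bp from that in each replicate, with ranks of 3651 and 3474.

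The conjugation genes held both the strongest site and the gene without one. Atg5, which forms a complex with Atg12 and Atg16 that promotes the attachment of Atg8a to lipid, had the strongest of the 17 summits. Atg5 (FBgn0029943, chrX:7314622-7323770, minus strand) lies inside the much longer CG1677 on the same strand. The summit at -1252 bp (peak chrX:7324734-7325264, signal 2611.9, rank 142) is in an intron of Dok, the gene of a signalling adaptor that runs in the opposite direction from a start site at -444 bp. It is 808 bp from the Dok start site. It was in the strongest 0.337% of the replicate 1 list (signal 1783.9) and the strongest 0.767% of the replicate 3 list (signal 839.2), with summits at -1257 and -1258 bp. A second strong summit lay in an intron of Atg5 at 4499 bp (peak chrX:7319082-7319463, signal 969.7, rank 1150). It ranked 1245 and 1073 in the replicates, so the ranks were close. At the Atg5 start site the pooled list had summits at -99 and -313 bp, with signals of 98.1 and 40.4, both too weak for the IDR list.

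Atg8a, the ubiquitin-like protein that coats the autophagosome membrane, had a pair of summits under 1 broad peak. Atg8a (FBgn0052672, chrX:10764878-10768338, minus strand) has 3 start sites, and both summits of the peak (chrX:10767281-10767991) lie in an intron between the most upstream of them and the next. The peak itself reaches across that internal start site. The summits are upstream of it, at -314 bp (signal 474.6, rank 2898) and -515 bp (signal 419.7, rank 3313). Replicate 1 had a single peak there, with its summit between them at -467 bp and rank 2056 (signal 381.3). Replicate 3 had a pair of peaks at nearly the same positions as the IDR summits, with ranks 4063 (signal 140.4) and 7340 (signal 74.6).

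Atg16, the partner of Atg5 that places the conjugation machinery on the membrane, had no IDR summit. Atg16 (FBgn0039705, chr3R:29827281-29835101, minus strand) had 1 pooled summit, at -445 bp, with signal 89.8 and rank 13420. Both replicates held it, at -449 bp with rank 16363 (signal 45.4) in replicate 1 and at -421 bp with rank 11752 (signal 43.1) in replicate 3. The replicates therefore placed a weak peak at nearly the same position. It was slightly closer to the start site of the divergent gene Prtl99C, which encodes a protamine-like protein, at -404 bp. The window around it is printed to set the weakest of the 10 genes beside the strong sites, with the word CGATA in capitals.
Atg16 at -445 bp (chr3R:29835496-29835596, minus strand): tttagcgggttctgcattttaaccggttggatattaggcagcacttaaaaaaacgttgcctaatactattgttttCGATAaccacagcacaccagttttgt

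Many of these summits were nearer to the start of a neighbouring gene than to that of the autophagy gene. This held for 9 of the 17 summits (52.9%), against 43.4% of all 11613 pairs of a protein-coding gene and an IDR summit in or within 2 kb of it. The neighbours were CG42709, Sap130, Xe7, S6KL, Pisd, Rox8, ERR and Dok, with Rox8 nearest to a pair of summits. When a summit counted only for the protein-coding gene of the nearest start site, 8 summits at 7 of the 10 genes were left, against 26.2% of all protein-coding genes. Atg101 and Atg6 had none left. Of the 17 summits, 11 (64.7%) lay within 500 bp of a start site of some protein-coding gene, against 39.6% of the 7193 IDR summits in or within 2 kb of any protein-coding gene. The peak lists do not tell which gene a site acts on, if any.

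**Figure D3:**
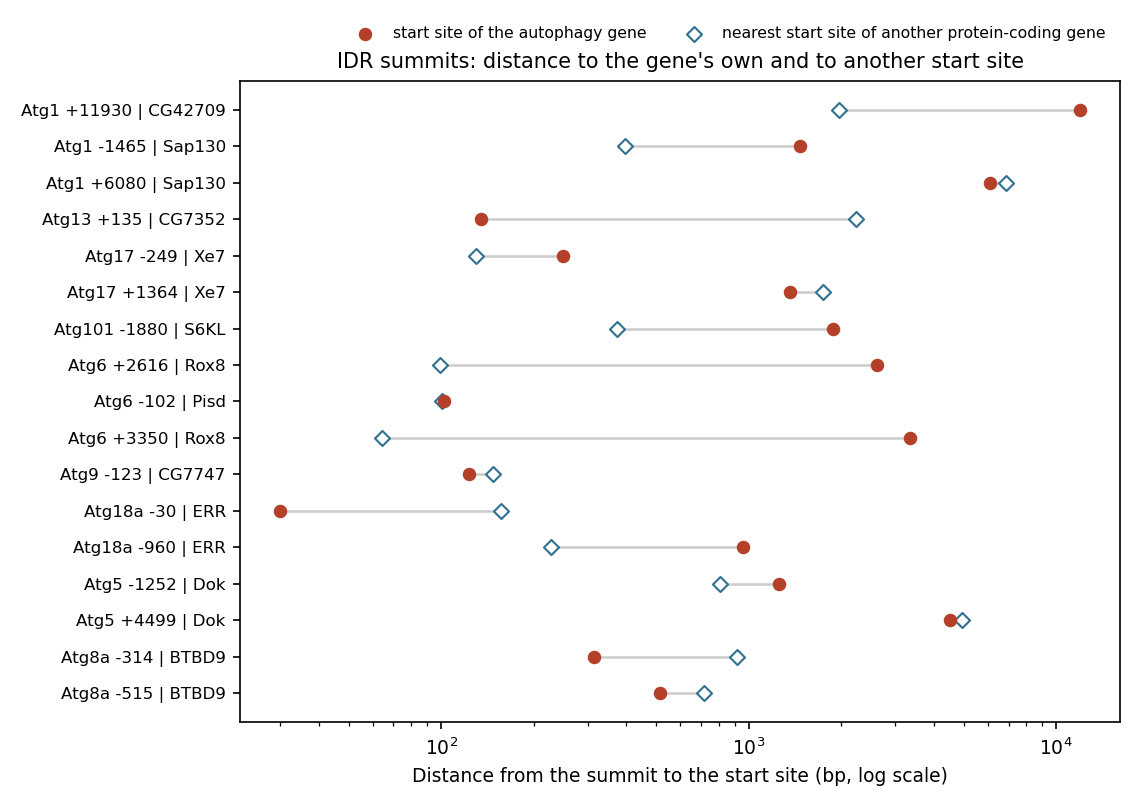
Distance in bp, on a log scale, from each of the 17 IDR summits to the nearest start site of the autophagy gene (filled circles) and to the nearest start site of another protein-coding gene (open diamonds, named after the bar). The diamond stands to the left of the circle for 9 summits, and the pair for Atg6 at -102 bp differs by 1 bp.

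The limit of 2 kb decided the membership of a few summits. Just inside it were the Atg101 summit at 1880 bp from the gene (signal 204.9) and the Atg6 summit at 1748 bp (signal 183.1). The closest IDR summits beyond it were 2366 bp from Atg13 (signal 964.5, rank 1157), 3815 bp from Atg8a (signal 1060.2, rank 1002), 3816 bp from Atg16 (signal 183.1, rank 7460) and 3937 bp from Atg9 (signal 1466.3, rank 561). Sites stronger than those assigned thus lay a short way outside for Atg13, Atg8a and Atg9. With a limit of 1 kb, 12 summits at 8 of the 10 genes were left, against 35.9% of all protein-coding genes. The strongest of the 17 summits, 1252 bp from Atg5 (signal 2611.9), was then not assigned.

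Below the IDR list, the listed genes carried 32 further pooled summits, with deposited −log10 q-values from 0.31 to 4.37. The low values mean weak statistical support, so not all 32 are confident sites. Their signals ran from 28.5 to 144.4, with a median of 65.1, and their ranks from 9173 to 29423. Of these, 20 overlapped a peak in both replicates (62.5%), against 62.6% of all 21517 pooled peaks outside the IDR list, 11 in a single replicate and 1 in neither. The listed genes did not stand apart from the list here. By the annotation of the autophagy gene, 9 lay in introns, 4 in 5′ UTRs, 2 in 3′ UTRs, 9 upstream and 8 downstream, and 0 in its coding exons. Nearly all (31 of 32) had a width of exactly 400 bp. In the whole pooled list the share was 78.2%, but that list includes the IDR peaks, of which fewer have this width. The share among pooled peaks outside the IDR list is therefore higher than 78.2%. All 8483 IDR peaks are also pooled peaks, and 23454 pooled peaks but only 2366 IDR peaks had this width. It is thus the usual width among the 21517 weaker peaks, and the 31 of 32 is not read as a trait of the listed genes. Of the 17 IDR peaks, 6 had this width, against 27.9% of the IDR list.

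Some of the weaker summits also lay nearer to the start site of a neighbour than to that of the listed gene. A summit downstream of Atg18a (signal 60.0) was 19 bp inside MED24, a Mediator subunit gene, and had a partner in replicate 1 but none in replicate 3. The summits nearest to Tango5, the fly VMP1 gene that also acts in autophagy, reached signal 104.3 at 3333 bp from the Atg8a start site. Summits downstream of Atg13 (signals 89.6 and 70.9) lay nearest to the start of stck, at 2604 and 2402 bp from it. They were closer to the end of Atg13, at 1557 and 1759 bp. The farthest downstream summit of Atg101 (signal 29.9) was nearest to the start of bnb, and the upstream one of Atg8a (signal 29.3) to that of BTBD9. The downstream summit of Atg5 (signal 28.5) had brk as its nearest start, at 5750 bp, but was 933 bp from the end of Atg5.

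The windows around the summits differed in base composition. The GC content of the windows around the 17 summits, of the width printed above, ran from 22.8% at the Atg1 summit at 11930 bp to 51.5% at the Atg13 summit at 135 bp, with a median of 34.7% against 30.7% over all IDR peaks. The 5 strongest summits had 22.8% to 30.7%, and the other 12 had 26.7% to 51.5%, so the strong sites were among the more AT-rich. Over all 8483 IDR peaks, signal and GC content had a Spearman correlation of -0.261, given as a description across peaks of the same libraries. The median GC content was 27.7% in the IDR peaks of rank 1000 or better and 30.7% in the others. What part base composition has in the signal was not tested.

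The 8 words were searched for as plain letters, each counted once per window on either strand. The DRE core, TATCGATA, was in 1 of the 17 windows (5.88%), against 0.967% of all IDR windows. Its last 5 letters, CGATA, which every DRE core also holds, were in 3 (17.6% against 12.0%). The GATA word, AGATAA, was in 3 (17.6% against 8.72%). These 3 words were thus found at some of the listed genes, in a few windows each. The TATA word, TATAAA, was in 2 windows (11.8% against 24.5%), and the Zeste word, TGAGTG, was in 1 (5.88% against 3.83%). The GAGA word, GAGAG, was in 0 of the 17 windows, against 9.74% of all IDR windows. The core of Motif 1, GGTCACAC, was in 0, against 0.530%, and the E-box, CACGTG, was in 0, against 0.519%. With 17 windows, a single match moves a share by 5.88 percentage points.

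The 3 windows with the GATA word are printed for the letters they share, with every matched word in capitals. The Atg17 window, from the weaker intronic site of that gene, also holds the DRE core.
Atg17 at 1364 bp (chr3R:5671027-5671127, plus strand): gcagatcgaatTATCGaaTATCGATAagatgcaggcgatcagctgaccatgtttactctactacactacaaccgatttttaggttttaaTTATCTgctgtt
Atg1 at -1465 bp (chr3L:12806531-12806631, minus strand): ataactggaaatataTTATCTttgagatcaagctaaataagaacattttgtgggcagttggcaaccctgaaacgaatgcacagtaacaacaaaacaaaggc
Atg101 at -1880 bp (chrX:18789738-18789838, plus strand): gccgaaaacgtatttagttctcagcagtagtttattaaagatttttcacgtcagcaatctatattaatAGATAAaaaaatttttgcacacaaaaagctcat

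Of 22 other genes of the autophagy pathway, listed by their known roles, 14 had an IDR summit in the gene or within 2 kb (63.6%, against 42.9% of all protein-coding genes). Within 500 bp of their own start sites 11 of the 22 had one, against 24.6%. Counting both lists, 23 of 32 genes had a summit in the wider window and 17 had one at a start site. By role, 4 of 5 genes of the lipid kinase complex, 5 of 7 conjugation genes and 3 of 4 genes for fusion with the lysosome had an IDR summit. So did 1 of 3 lipid transfer and lipid-binding genes and 1 of 2 upstream regulators. The gene of the cargo receptor, ref(2)P, had no IDR summit. Within 500 bp of their own start sites the counts were lower for some roles. They were 2 of 5 for the lipid kinase complex, 4 of 7 for conjugation, 3 of 4 for fusion, 1 of 3 and 1 of 2.

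The strongest summit among these other genes was beside Rubicon, which encodes a partner of the lipid kinase complex, with signal 1859.9 and rank 326. It lay downstream, at 4328 bp, and 139 bp past a start site of CAH3. Rubicon also had a summit at 23 bp from its own start site, with signal 433.7 and rank 3192. Atg2, whose product moves lipid into the growing membrane, had signal 1645.5 and rank 427 at -248 bp, in a space shared with CG12093. This summit was nearer to the start site of CG12093, at -83 bp. It ranked 587 in replicate 1 and 283 in replicate 3, so it was strong in both.

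The other 3 genes among the 5 strongest followed. Syx17, the SNARE protein gene for fusion with the lysosome, had signal 1275.8 at 3301 bp, which is -155 bp from a start site of TP53INP. Atg4b, the gene of a protease that processes Atg8, had signal 864.6 at -150 bp, nearest to its own start. Snap29, the gene of another SNARE of the same complex, had signal 854.8 at -97 bp, also nearest to its own start. The replicates ranked the Atg4b peak 1511 and 1133, and the Snap29 peak 1691 and 1066, so these sites stood high in both.

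**Figure D4:**
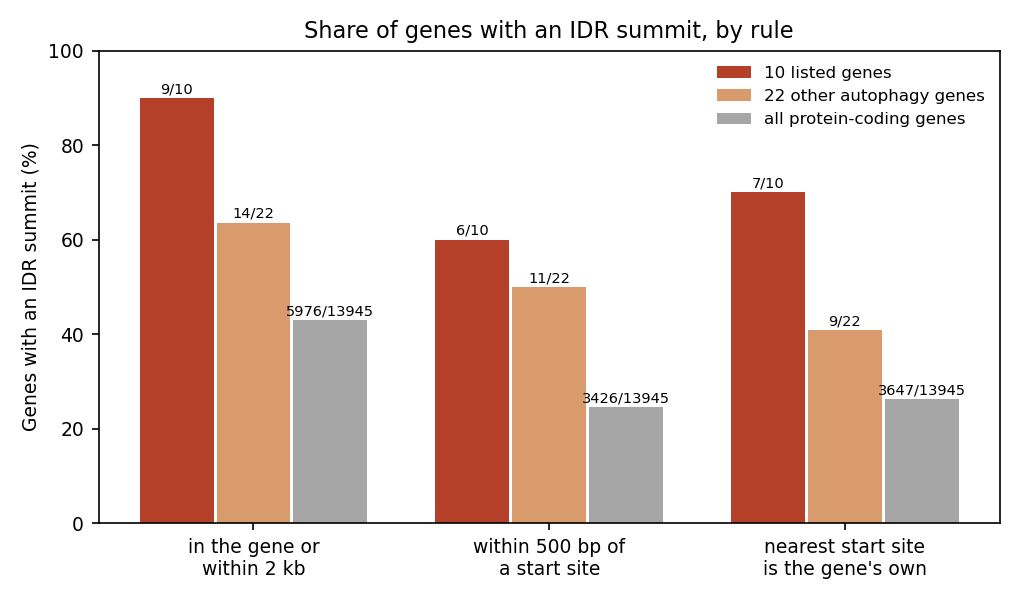
Percentage of genes with an IDR summit under 3 rules, for the 10 listed genes, the 22 other autophagy genes and all 13945 protein-coding genes; the fractions above the bars give the counts. The listed genes stand at 90.0%, 60.0% and 70.0%, the other autophagy genes at 14, 11 and 9 of 22, and all protein-coding genes at 42.9%, 24.6% and 26.2%.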

How the data were processed

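ChIP-seq of GFP-tagged CG15710 was available as 4 peak lists on dm6, made from 2 biological replicates of 1 group of whole pupae. The authors' file descriptions, deposited beside the lists, record a list for each replicate, a list for both replicates pooled and an IDR list made from the replicates, with each replicate and pooled list also drawing on an undescribed input. Chromatin was sonicated to 200 to 800 bp, per the labels. Which aligner, peak caller and IDR threshold were used is not given in the sources used here. The control libraries were not analysed here. Of the deposited columns, the signal (column 7) was used only within a list. The deposited −log10 q-value (column 9) was 4.37 for every IDR peak and was not used for ranking. Depth is unknown, as the lists hold no read counts, so its effect on weak peaks could not be assessed.

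Genes and start sites came from Ensembl release 115, without transposable elements. All 10 genes have the same span in RefSeq, and bases were read from RefSeq's dm6, whose arms contain every peak. Summits are start plus the offset in column 10, written 1-based. A peak was present in a replicate when at least 1 bp overlapped, and the overlapping peak of highest signal was given. Windows were printed without bases annotated as UTR and, by rule, not for 2R. Gene assignment by distance was tested on simulated summits placed near start sites of real genes (Python 3.11.15, pandas 2.3.3, numpy 2.4.6). The sign by strand, the annotated place and the nearest gene were not part of that test. The gene named Tor in the pathway list is annotated as mTor.

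The members and lists were chosen with earlier results of these data known. All 10 members are named, with neighbours whose start site is nearer to a summit, and the 5 other pathway genes of highest signal or with rank 500 or better. ref(2)P and the second neighbours of pathway genes were named after their values were seen. No test was made: there is 1 group, and peaks and genes are not replicates. Alternatives were other distances, the 4241 strongest IDR peaks, the pooled list, each replicate alone, nearest start site only, and other overlap rules.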

Additional observations from a re-analysis of the deposited data

How the results depend on the processing

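Percentages in brackets are the share of all protein-coding genes under the same rule. The count of 9 of 10 listed genes with an IDR summit (42.9%) was 7 among the 4241 IDR peaks of highest signal (27.3%) and 7 with nearest start site only (26.2%). It was 10 within 5 kb (57.4%) and 10 in the pooled list (62.8%). With summits in the gene body only it was 5, with 7 summits, and 1 of the 22 other pathway genes had one, against 16.1% of all protein-coding genes. The 17 summits became 11 with a flank of 500 bp, 10 among the 4241 IDR peaks of highest signal, 8 with nearest start site only and 49 in the pooled list, and with nearest start site only 9 other pathway genes kept a summit. Taking the 8483 strongest peaks of replicate 3 (without replicate 1) or of replicate 1 (without replicate 3), the 10 genes had 14 and 17 summits, at 9 genes each time (43.9% and 42.1%). Without replicate 1, Atg6 had 1 summit in place of 3 and Atg1 had 2 in place of 3. Without replicate 3, Atg8a had 1 in place of 2 and Atg1 had 4 in place of 3, so the total stayed at 17 although both genes changed. The 6 genes with a summit at a start site (24.6%) became 9 in the pooled list (47.0%). They became 4 among the 4241 IDR peaks of highest signal and 4 with nearest start site only, where the share of all genes was not computed. The 17 peaks present in both replicates ranged from 13 to 17 over the overlap rules. No paired analysis was possible because there is 1 group. The lists give no depth, and counts of weak peaks depend on where each list ends.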
